A study of Mus musculus with 3 samples.

Results

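The 8 genes described here encode caspases and effectors of apoptotic body formation, namely Casp6, Casp8, Casp9, Apaf1, Cycs, Rock1, Panx1 and Xkr8. They were chosen by symbol, and all transcripts that GENCODE M21 assigns to them were taken from the deposited mRNA table and summed per gene. All 8 were listed, among 15861 genes, with 26 of their 39 annotated transcripts, among 56651 transcripts in the table. The RNA was sequenced from apoptotic bodies (ABs), the membrane-bound fragments that dying cells release. BMM-ABs came from bone marrow macrophages (BMMs), which were grown from the bone marrow of C57BL/6 mice at postnatal week 11 with M-CSF at 50 ng/ml for 72 h. pOC-ABs came from preosteoclasts (pOCs), made from BMMs with RANKL at 100 ng/ml and M-CSF at 30 ng/ml for 24 h. mOC-ABs came from mature osteoclasts (mOCs), which received the same factors for 72 h or longer. All 3 cultures shared, per the labels, alendronate at 500 µM for 12 h to induce the ABs, whereas the text of the study names staurosporine and a longer stimulation for mOCs. The study's text also gives a shorter culture with M-CSF to obtain BMMs than the 72 h of the labels. The sample titles name the cells, and the description of the series speaks of their ABs. The number of mice behind a library is not given in the sources used here.

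In apoptosis, initiator caspases cleave and activate executioner caspases. Caspase-8 is activated at death receptors, while caspase-9 is activated on the apoptosome, a wheel of APAF1 molecules that assembles when cytochrome c (Cycs) leaves the mitochondria. Executioner caspases then cleave many proteins, and some of these cuts drive the break-up of the cell: cleaved ROCK1 contracts the actomyosin cortex so that the membrane blebs, cleaved pannexin 1 opens a plasma membrane channel, and cleaved XKR8 scrambles phospholipids so that phosphatidylserine reaches the outer leaflet. Caspases and these effectors are switched by cleavage of existing protein, so an RNA level is not a measure of their activity.

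Each group had 1 library, so no difference could be compared with a spread between samples, and no p-value is given. The mRNA table held 9100082 (BMM-ABs), 7387317 (pOC-ABs) and 7705592 (mOC-ABs) reads. Levels are given as RPM, the reads of a gene per 1000000 reads of that table, with 95% exact Poisson intervals, and ratios with 95% exact binomial intervals. Both cover counting error only, since reads without molecular identifiers are not independent molecules. Where 3 values stand in a row without names, they belong to BMM-ABs first, then pOC-ABs, then mOC-ABs. A ratio above 2 or below 0.5 was called past the fold limit. The study used this fold change together with a limit on the adjusted p-value, which was not computed here. Macrophage markers summed to 5632, 2679 and 1771 RPM (6 of 6 listed), and osteoclast markers to 344, 580 and 1864 RPM (7 of 8 listed, Calcr was not). Lyz2, the most abundant macrophage marker over the 3 libraries together, had 3170, 1334 and 411 RPM. Without it the other 5 gave 2462, 1345 and 1360 RPM, with no further fall from pOC-ABs to mOC-ABs. The osteoclast sum without its most abundant gene, Nfatc1, was 62.3, 204.4 and 765.8 RPM. The part of these markers in the results below was not tested. Markers of neutrophils, T cells and erythroid cells were not listed, and those of B, stromal and endothelial cells had at most 9 reads per list and library. In bulk RNA, fewer ABs of a kind and less RNA per AB cannot be told apart.

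Between pOC-ABs and BMM-ABs, 1 of the 8 genes was past the fold limit, Cycs, which was higher in pOC-ABs. Over all genes with at least 1 read, 19.3% were past it, and over those with at least 20 reads, 9.78%. None of the 8 was past it between mOC-ABs and BMM-ABs, against 21.5% of genes with at least 1 read and 12.1% with at least 20. Between mOC-ABs and pOC-ABs it was also 0 of 8, against 19.3% and 8.78%. The median log2 ratio of the 8 genes was -0.04, 0.02 and -0.28 in these comparisons, beside -0.02, -0.05 and -0.04 over all genes with at least 20 reads. Of the 24 ratios, 14 had an interval that did not include equal levels, 5 for pOC-ABs against BMM-ABs, 5 for mOC-ABs against BMM-ABs and 4 for mOC-ABs against pOC-ABs.

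**Figure D1:**
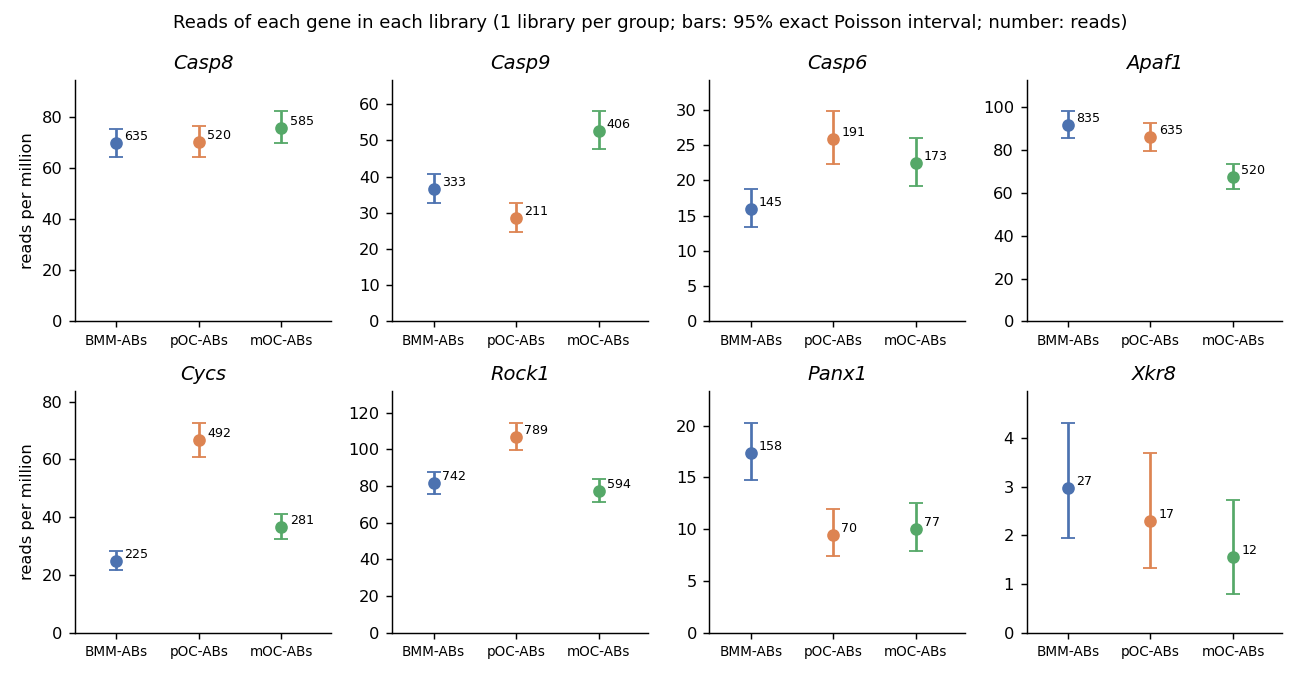
RPM (linear axis from 0) of each of the 8 genes in the 1 library of each group. Bars are 95% exact Poisson intervals, and the number beside each point is the reads of the gene. Cycs and Rock1 had their highest point in pOC-ABs, Casp9 in mOC-ABs and Panx1 in BMM-ABs.

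**Figure D2:**
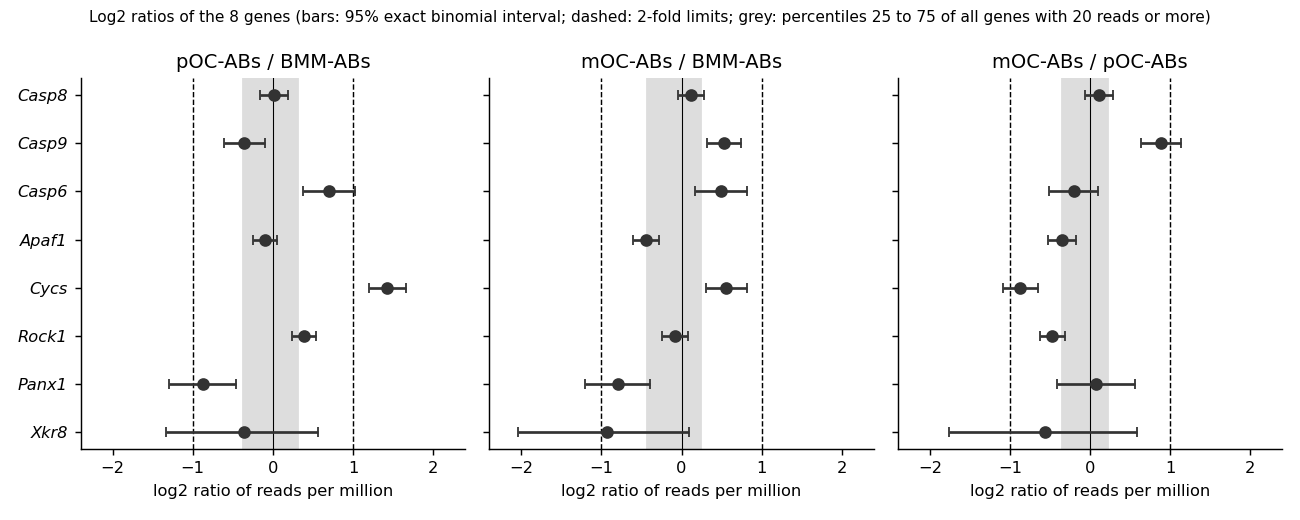
Log2 ratio of RPM of the 8 genes in the 3 comparisons, with 95% exact binomial intervals. Dashed lines mark a ratio of 2 and of 0.5, and the grey band spans the percentiles 25 to 75 of all genes with at least 20 reads. Cycs at 1.43 in pOC-ABs against BMM-ABs was the point outside the dashed lines.

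The initiator Casp8 (ENSMUSG00000026029, chr1:58795374-58847503, plus strand) was the member least different between libraries. It had 635 reads in BMM-ABs against 520 (pOC-ABs) and 585 (mOC-ABs), or 69.8, 70.4 and 75.9 RPM. All 3 log2 ratios lay between 0.01 and 0.12, and their intervals reached at most 0.29 and at least -0.16. With reads scaled to the mRNA and lncRNA tables together, pOC-ABs stood at -0.19 against BMM-ABs. Per length, Casp8 had the highest listed level of the 8 genes in each library, at 33.2, 33.3 and 35.8 FPKM. These are the deposited reads per kilobase of transcript, scaled to sequencing depth, and lay within the percentiles 80.4 to 82.4 of all genes. The rank takes Cycs as listed. Gm10053, a gene with the same coding bases as Cycs, had 66.6, 129 and 88.8 FPKM, and how reads that fit both were divided is not given.

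Casp8 was also the member whose reads were spread most evenly over transcripts. Casp8-202 held 47.7%, 45.2% and 38.5% of the reads, and Casp8-201, which starts at an exon further upstream and codes for the same 480 codons, held 39.4%, 39.2% and 43.6%. The remaining transcripts, Casp8-203 and Casp8-204, include an added exon that moves the start codon upstream and lengthens the reading frame to 500 codons. Together they had 82, 81 and 105 reads, 12.9% (95% exact interval 10.4 to 15.8), 15.6% (12.6 to 19.0) and 17.9% (14.9 to 21.3) of the gene, so that the shares of neighbouring libraries overlapped. Casp8-203 alone had 35, 12 and 46 reads and was past the fold limit between pOC-ABs and both other libraries, while Casp8-204 had 47, 69 and 59. The coding bases of this exon (GRCm38, chr1:58804083-58804114, plus strand) are shown because they are what separates the longer form. They stand in capitals, followed by the next exon:
Casp8-204: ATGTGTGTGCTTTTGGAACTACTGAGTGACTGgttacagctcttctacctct

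The initiator of the mitochondrial route, Casp9 (ENSMUSG00000028914, chr4:141793612-141815976, plus strand), was highest in mOC-ABs. Its reads were 333 in BMM-ABs against 211 (pOC-ABs) and 406 (mOC-ABs), or 36.6, 28.6 and 52.7 RPM. The order pOC-ABs, BMM-ABs, mOC-ABs was separated by more than counting error at each step, with no overlap between the Poisson intervals of 24.8 to 32.7, 32.8 to 40.7 and 47.7 to 58.1 RPM. The log2 ratio was -0.36 (-0.61 to -0.10) for pOC-ABs against BMM-ABs, 0.53 (0.31 to 0.74) for mOC-ABs against BMM-ABs and 0.88 (0.64 to 1.13) for mOC-ABs against pOC-ABs. The last of these was 0.54 from the deposited FPKM values summed per gene, which give short transcripts more weight. From the same values the first was -0.20, and the intervals of pOC-ABs (10.1 to 13.3 FPKM) and BMM-ABs (11.9 to 14.8 FPKM) overlapped.

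The higher value in mOC-ABs lay in the full-length transcript of Casp9. Casp9-201, with 454 codons, had 276, 170 and 376 reads and was past the fold limit between mOC-ABs and pOC-ABs, with a ratio of 2.12 (1.76 to 2.56). Its other 4 listed transcripts summed to 57, 41 and 30 reads and were lowest in mOC-ABs. The share of Casp9-201 was 82.9% (78.4 to 86.8), 80.6% (74.6 to 85.7) and 92.6% (89.6 to 95.0), highest in mOC-ABs. Casp9-202, which skips an exon and ends after 405 codons, had 9, 7 and 1 reads.

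Apaf1 (ENSMUSG00000019979, chr10:90989311-91082770, minus strand), the scaffold of the apoptosome, was lowest in mOC-ABs, where Casp9 was highest. It had 835 reads in BMM-ABs against 635 (pOC-ABs) and 520 (mOC-ABs), or 91.8, 86.0 and 67.5 RPM. BMM-ABs and pOC-ABs differed within counting error, with a log2 ratio of -0.09 (-0.25 to 0.06), although with both tables together it was -0.29 and outside this interval. mOC-ABs were below both, by -0.44 (-0.60 to -0.28) against BMM-ABs and -0.35 (-0.52 to -0.18) against pOC-ABs on the log2 scale.

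Most Apaf1 reads were on Apaf1-202 in all 3 libraries, between 86.9% and 88.1%. Apaf1-208 was listed with 0 reads in BMM-ABs, 0 in those of pOCs and 25 in mOC-ABs, 4.81% (3.14 to 7.02) of the gene there. Set against 3 reads per library, the limit that a count of 0 allows, it was at least 9.84-fold higher in mOC-ABs than in BMM-ABs and at least 7.99-fold higher than in pOC-ABs. These bounds leave out the counting error of the 25 reads, with which the exact intervals of the ratios began at 7.43 and 6.03. A lncRNA listed over the 3′ end of Apaf1 had 5, 1 and 26 reads, and its part in this difference was not tested. Apaf1-205 and Apaf1-207, which stop after 258 of the 1249 codons, went the other way, with 41, 28 and 8 reads together. Their summed log2 ratio was -2.12 (-3.42 to -1.01) for mOC-ABs against BMM-ABs. Which feature of Apaf1-208 its 25 reads rest on was not tested. Its annotated 3′ end lies at chr10:90990602, against chr10:90989311 for Apaf1-202, and the lncRNA spans chr10:90989318-90990666. Apaf1-208 also uses another splice site and so lacks 33 coding bases, which keeps the frame and leaves 1238 codons. These bases (GRCm38, chr10:91079447-91079479, minus strand) are in capitals in the stretch of Apaf1-202 that spans them:
Apaf1-202: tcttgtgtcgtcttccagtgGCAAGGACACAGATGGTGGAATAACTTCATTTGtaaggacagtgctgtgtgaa

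Cycs (ENSMUSG00000063694, chr6:50562563-50566538, minus strand), the electron carrier that triggers the apoptosome in the cytosol, differed most. It had 225 reads in BMM-ABs against 492 (pOC-ABs) and 281 (mOC-ABs), or 24.7, 66.6 and 36.5 RPM, and the 3 Poisson intervals did not overlap. The ratio of pOC-ABs to BMM-ABs was 2.69 (2.30 to 3.17), the only one of the 24 whose whole interval was past the fold limit. mOC-ABs lay between, with a log2 ratio of 0.56 (0.30 to 0.82) against BMM-ABs and of -0.87 (-1.09 to -0.65) against pOC-ABs. Cycs-202, the coding transcript, held 96.0%, 97.8% and 99.6% of the reads. Of the 9880 protein-coding genes with at least 100 reads, Sub1 was nearest to Cycs in its pattern over the 3 libraries (distance of centred log2 RPM 0.050), with 255, 566 and 334 reads. S100a13 (89, 184 and 104 reads, distance 0.073) and Xlr (157, 334 and 181 reads, distance 0.083) followed.

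Cycs shares its sequence with a copy elsewhere in the genome. Gm10053, a gene of a single exon annotated as protein-coding (chr19:24875686-24876631, plus strand), aligned to Cycs-202 over all of its 946 bases with 1 mismatch and no gap, and none of the 315 coding bases differed. It was listed with 575, 903 and 649 reads, more than Cycs in every library, and took 71.9%, 64.7% and 69.8% of the reads of the pair. How reads that fit both were divided is not given in the sources used here, so the value of each gene alone is uncertain. Summed, the pair had 800, 1395 and 930 reads, and the ratio of pOC-ABs to BMM-ABs was 2.15 (1.97 to 2.35), which stayed past the fold limit. When reads were scaled to the mRNA and lncRNA tables together, the log2 ratio of the pair was 0.90 and below the limit. Another copy, the processed pseudogene Gm10108 on chromosome 5, had 88, 134 and 118 reads, and the sum of all 3 gave a ratio of 2.12 (1.95 to 2.31). The listed near copies of Rock1 and Casp8, Gm5374 and Gm20257, had at most 12 and 14 reads. The first 150 coding bases are shown, from chr6:50565511-50565660 on the minus strand for Cycs-202 and chr19:24875753-24875902 on the plus strand for Gm10053 (GRCm38), because a read from this stretch fits both genes:
Cycs-202: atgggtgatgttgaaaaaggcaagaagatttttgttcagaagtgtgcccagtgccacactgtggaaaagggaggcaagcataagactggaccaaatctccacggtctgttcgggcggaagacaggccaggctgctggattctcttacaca
Gm10053: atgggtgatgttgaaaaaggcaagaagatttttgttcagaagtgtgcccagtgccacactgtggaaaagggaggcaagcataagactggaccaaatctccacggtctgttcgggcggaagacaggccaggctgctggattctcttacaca

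**Figure D3:**
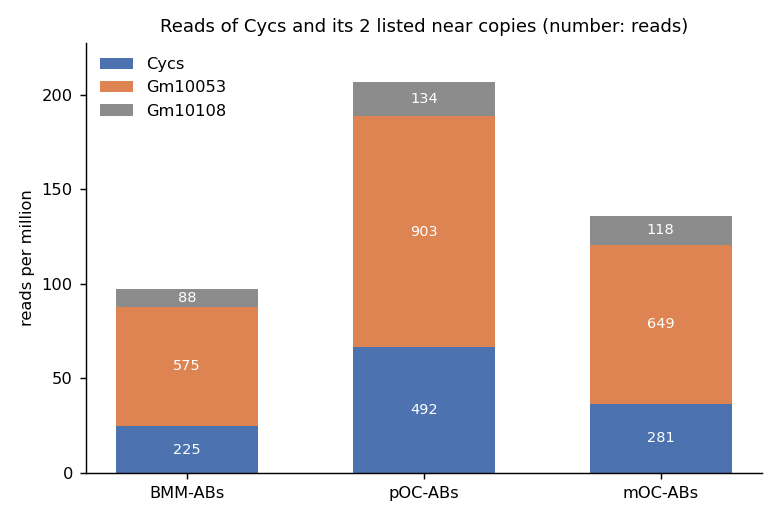
Stacked RPM of Cycs and of its listed near copies Gm10053 and Gm10108 in each library, with the reads written in each segment. Each of the 3 segments was tallest in pOC-ABs.

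Casp6 (ENSMUSG00000027997, chr3:129901425-129914103, plus strand), an executioner caspase that cleaves lamin A, was lowest in BMM-ABs. It had 145 reads in BMM-ABs against 191 (pOC-ABs) and 173 (mOC-ABs), or 15.9, 25.9 and 22.5 RPM. The log2 ratio was 0.70 (0.38 to 1.02) for pOC-ABs and 0.49 (0.17 to 0.82) for mOC-ABs, both against BMM-ABs, while pOC-ABs and mOC-ABs differed within counting error (-0.20, -0.51 to 0.10). A part of the reads lay on Casp6-204, a transcript of a single exon that runs through introns and has no reading frame. It had 22 reads in BMM-ABs against 50 (pOC-ABs) and 16 (mOC-ABs), which was 15.2% (9.76 to 22.1), 26.2% (20.1 to 33.0) and 9.25% (5.38 to 14.6) of the gene. Casp6-204 was past the fold limit for pOC-ABs against BMM-ABs (log2 ratio 1.49, 0.74 to 2.28) and for mOC-ABs against pOC-ABs (-1.70, -2.62 to -0.87). The coding transcript Casp6-201 had 121, 140 and 154 reads. With coding transcripts alone, the log2 ratio of mOC-ABs to pOC-ABs was 0.08 and not -0.20.

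Rock1 (ENSMUSG00000024290, chr18:10064401-10182045, minus strand), the kinase that drives blebbing after caspase cleavage, was highest in pOC-ABs. Its 742, 789 and 594 reads, all on Rock1-201, were 81.5, 107 and 77.1 RPM. The log2 ratio was 0.39 (0.24 to 0.54) for pOC-ABs against BMM-ABs and -0.47 (-0.63 to -0.31) for mOC-ABs against pOC-ABs. BMM-ABs and mOC-ABs differed within counting error (-0.08, -0.24 to 0.08). Scaling to both tables together lowered the first value to 0.19, since lncRNA reads made up 28.5%, 37.7% and 33.3% of the reads of both tables.

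Panx1 (ENSMUSG00000031934, chr9:15002128-15045478, minus strand), the channel that releases nucleotides from dying cells, was highest in BMM-ABs. It had 158 reads in BMM-ABs against 70 (pOC-ABs) and 77 (mOC-ABs), or 17.4, 9.48 and 9.99 RPM. The log2 ratio was -0.87 (-1.30 to -0.46) for pOC-ABs and -0.80 (-1.21 to -0.40) for mOC-ABs against BMM-ABs, and 0.08 (-0.41 to 0.56) between mOC-ABs and pOC-ABs. Both differences from BMM-ABs lay short of the fold limit, and their intervals reached beyond it. The one for pOC-ABs was past the limit with both tables together and with protein-coding transcripts alone (-1.36).

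Within Panx1, the coding transcript held the difference. Panx1-202, with 426 codons, had 108 reads in BMM-ABs against 36 (pOC-ABs) and 44 (mOC-ABs), and was past the fold limit against BMM-ABs in pOC-ABs (log2 ratio -1.28, -1.87 to -0.73) and in mOC-ABs (-1.06, -1.60 to -0.54). Panx1-201, annotated as a target of nonsense-mediated decay, had 43, 33 and 30 reads, or 4.73, 4.47 and 3.89 RPM, and its 3 Poisson intervals overlapped. Its share of the gene was 27.2% (20.4 to 34.9), 47.1% (35.1 to 59.4) and 39.0% (28.0 to 50.8). Panx1-201 leaves out exon 3 and ends after 112 codons. The skipped exon (221 bases, GRCm38, chr9:15010036-15010256, minus strand) is in capitals in Panx1-202, between the 20 bases on each side:
Panx1-202: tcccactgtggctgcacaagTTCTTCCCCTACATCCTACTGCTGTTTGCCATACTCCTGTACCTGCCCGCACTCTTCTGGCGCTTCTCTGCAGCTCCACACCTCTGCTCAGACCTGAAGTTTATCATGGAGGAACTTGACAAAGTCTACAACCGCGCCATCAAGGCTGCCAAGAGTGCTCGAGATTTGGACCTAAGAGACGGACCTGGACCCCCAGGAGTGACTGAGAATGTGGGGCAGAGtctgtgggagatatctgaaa

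Xkr8 (ENSMUSG00000037752, chr4:132724897-132732546, minus strand), the scramblase that caspases activate, had the lowest level of the 8 genes. It had 27 reads in BMM-ABs against 17 (pOC-ABs) and 12 (mOC-ABs), all on Xkr8-201, or 2.97, 2.30 and 1.56 RPM. Per length these were 0.699, 0.542 and 0.367 FPKM, within the percentiles 14.1 to 16.8 of all genes. All 3 Poisson intervals overlapped, and the log2 ratio of mOC-ABs to BMM-ABs was -0.93 with an interval from -2.05 to 0.10, so a difference was not detectable at this depth. With both tables together this ratio was past the fold limit.

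**Figure D4:**
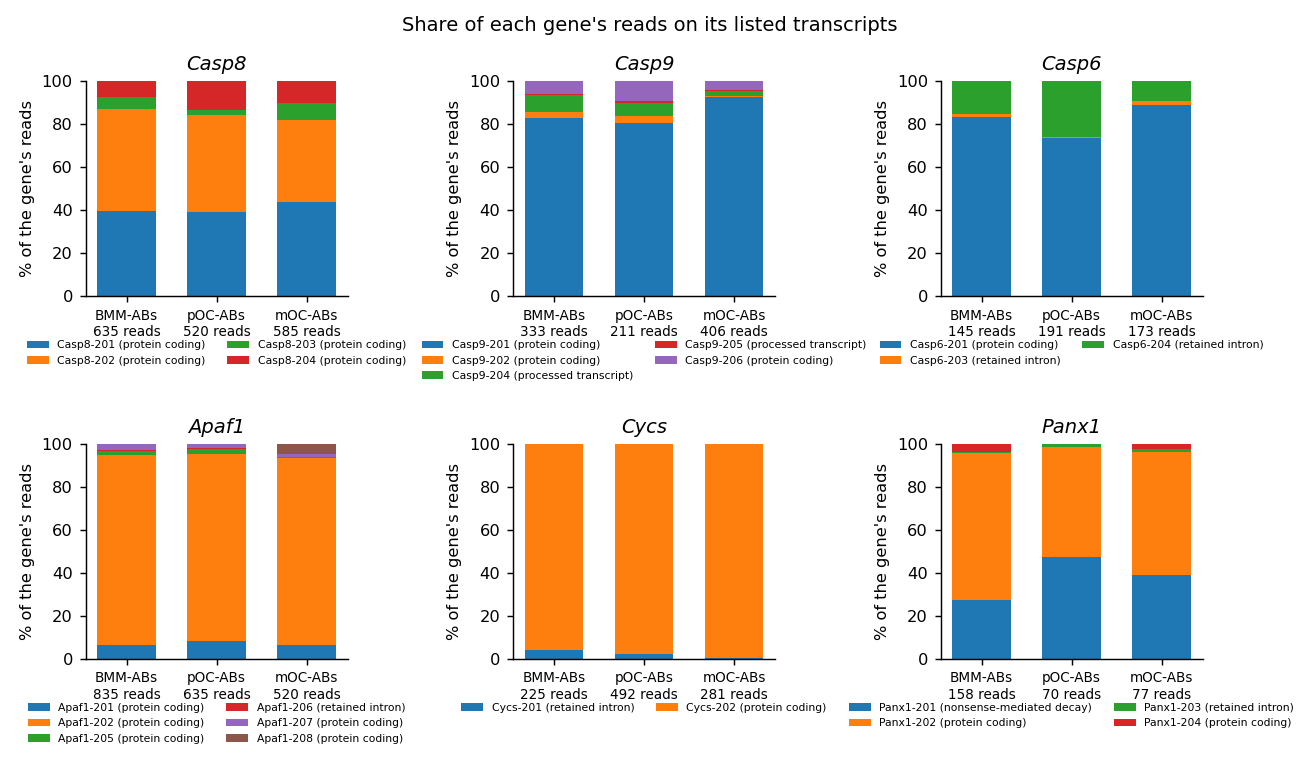
Share of the reads of a gene on each of its listed transcripts, in percent from 0 to 100, for the 6 genes with more than 1 listed transcript. The reads of the gene stand under each bar. Casp6-204 was widest in pOC-ABs at 26.2%, Panx1-202 in BMM-ABs at 68.4% and Casp9-201 in mOC-ABs at 92.6%.

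At the level of transcripts, 5 of the 25 with reads were past the fold limit between pOC-ABs and BMM-ABs, 9 of 26 between mOC-ABs and BMM-ABs and 11 of 26 between mOC-ABs and pOC-ABs. Over all transcripts with at least 1 read the corresponding shares were 43.5%, 44.8% and 43.6%. With at least 20 reads, 4 of 19, 4 of 18 and 4 of 17 were past it, beside 35%, 36.5% and 33% of all transcripts. The transcript make-up of a gene was compared by the percentage of its reads that would have to move between transcripts to match the other library, for genes with at least 100 reads in each. The median of the 5 members that met this (Panx1 and the genes with 1 transcript did not) was 4.43%, 5.92% and 9.91%, beside 9.51%, 9.26% and 8.84% over all such genes. Casp6 had the highest of these values, 16.9% between mOC-ABs and pOC-ABs.

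Other genes of the pathway were described from a list of 51, of which 43 were listed. The genes Casp12, Casp14, Mylk, Myl9, Xkr4, Xkr9, Panx2 and Panx3 were not, so Panx1 was the only listed pannexin, and Xkr8 the only one listed of Xkr4, Xkr8 and Xkr9. Past the fold limit were 1 of the 43 (2.33%) between pOC-ABs and BMM-ABs, 2 (4.65%) between mOC-ABs and BMM-ABs and 3 (6.98%) between mOC-ABs and pOC-ABs, beside the 19.3%, 21.5% and 19.3% of all genes and the 9.78%, 12.1% and 8.78% of those with at least 20 reads. With at least 20 reads, 1, 1 and 2 genes of the list were past it. Casp1, the inflammatory caspase that matures interleukin 1 beta, had 168, 283 and 119 reads, a ratio of 2.08 for pOC-ABs against BMM-ABs and of 0.403 for mOC-ABs against pOC-ABs. Casp4, an inflammatory caspase that senses lipopolysaccharide, had 110, 139 and 63 reads and a ratio of 0.435 in the latter comparison. The actin-severing caspase substrate Gsn had 3899, 4150 and 6857 reads and was 2.08 times as high in mOC-ABs as in BMM-ABs. The death receptor Fas had 10, 16 and 0 reads, and was at least 5.56-fold lower in mOC-ABs than in pOC-ABs when set against 3 reads (the exact interval of the log2 ratio, which takes in the error of both counts, reached up to -2.01). With both tables together, neither Casp1 in pOC-ABs nor Gsn in mOC-ABs was past the limit against BMM-ABs, while Ano6 and Casp2 in pOC-ABs, and Atp11a and Casp2 in mOC-ABs, were.

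The direct partners of the 8 genes stayed within the fold limit on all reads, while with protein-coding transcripts alone Diablo was past it in both comparisons with BMM-ABs. Rock2, the close relative of Rock1, had 1184, 1335 and 1174 reads and, like Rock1, its highest RPM in pOC-ABs (180.7, against 130.1 in BMM-ABs and 152.4 in mOC-ABs). Of the 6 listed actomyosin genes, 5 were higher in pOC-ABs than in BMM-ABs by RPM, beside 24 of the 43 listed pathway genes. Limk1 was among the 5, but the interval of its log2 ratio (-0.18 to 0.34) included equal levels. It was lower with both tables together, which left 4, and by FPKM (9.89 in BMM-ABs, 9.46 in pOC-ABs). Myh9, the heavy chain of non-muscle myosin, was lower in pOC-ABs than in BMM-ABs in either scaling (9448, 6301 and 7853 reads). Diablo, which leaves the mitochondria with cytochrome c and blocks inhibitors of apoptosis, had 282, 193 and 308 reads and was highest in mOC-ABs. Its lowest level was in pOC-ABs by RPM (31.0, 26.1 and 40.0) but in BMM-ABs by FPKM (13.7, 16.5 and 27.0), and the interval of the log2 ratio between these 2 libraries, -0.52 to 0.02, included equal levels. Xiap, which inhibits caspase-9, had 219, 223 and 299 reads, and its order also turned on the scale, with 24.1, 30.2 and 38.8 RPM but 15.4, 8.16 and 14.8 FPKM. The adaptor of Casp8, Fadd, had 221, 167 and 141 reads, and its decoy Cflar 1518, 1108 and 1364.

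Scramblases and flippases set where phosphatidylserine sits. Among these and their partners, Bsg and Nptn included, 6 of 7 listed genes were lower in pOC-ABs than in BMM-ABs. The same held for 6 of the 7 in mOC-ABs against BMM-ABs, and both counts were the same under each of the 4 scalings. The median log2 ratio of the 7 was -0.44 and -0.45. Over the whole list of 43, 19 and 24 genes were lower by RPM in these 2 comparisons. The partners that XKR8 needs to reach the plasma membrane, Bsg and Nptn, had 1664, 856 and 1279 reads and 826, 388 and 418 reads. The ratio of pOC-ABs to BMM-ABs was 0.634 for Bsg and 0.579 for Nptn, and 0.522 for the calcium-dependent scramblase Ano6 (1194, 506 and 741 reads). The exception in both comparisons was Plscr1, with 79, 95 and 107 reads.

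**Figure D5:**
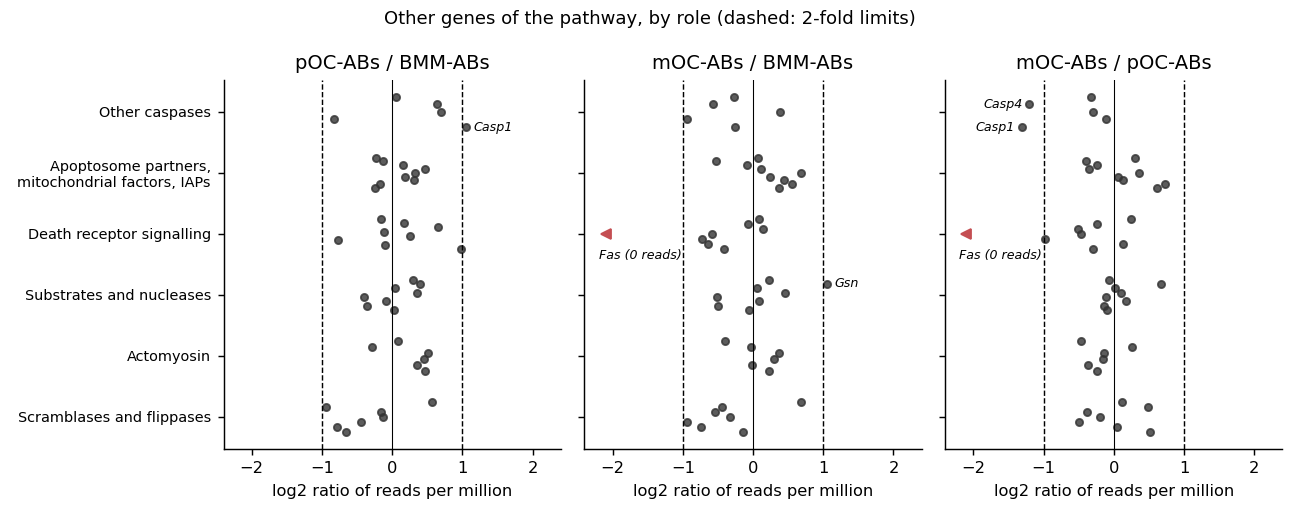
Log2 ratio of RPM of the other listed pathway genes, each a point, grouped by role, in the 3 comparisons. Dashed lines mark a ratio of 2 and of 0.5, and the triangle marks Fas, with 0 reads in mOC-ABs. Of the 43 genes, 1, 2 and 3 lay outside the dashed lines.

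The circRNA table listed 1372 back-splice junctions, and none had one of the 8 genes as its host. It held 3413, 2380 and 4014 junction reads in all, so a junction with few reads could go unlisted. The libraries were made from RNA captured on poly-T beads, and how far that step kept circular RNA was not tested. The absence is therefore not a result about the 8 genes.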

How the data were processed

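The 3 paired-end libraries, 1 per group, were made from polyadenylated RNA captured on poly-T beads. The authors deposited counts of reads per transcript for mRNAs and lncRNAs, counts of back-splice junction reads for circRNAs, and FPKM values (those of the lncRNAs, and the scaled junction values, were not used). FastQC, HISAT2, StringTie and GRCm38 are named in the submitters' processing notes, while the counting tool and the use of strand are not given in the sources used here. The columns for 0 h, 24 h and 72 h were assigned by the RANKL times in the labels. Transcripts were joined to GENCODE M21 (56440 of 56651, the other 211 holding 0.110% of the reads). The deposited FPKM implied the GENCODE length within 1% for 97.6% of 24238 transcripts.

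Reads were summed per gene and divided by the total of the mRNA table. With 3 reads as the limit of a count of 0, depth allowed 0.330 (BMM-ABs), 0.406 (pOC-ABs) and 0.389 (mOC-ABs) RPM. Intervals were 95% Clopper-Pearson and Poisson (Python 3.11.15, numpy 2.4.6, pandas 2.3.3, scipy 1.17.1), tested on simulated data, and figures used matplotlib 3.10.9. Sequences came from the GENCODE M21 transcripts and were aligned with Biopython 1.88. Near copies were genes that share windows of 50 bases with a member.

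Alternatives were reads of the mRNA and lncRNA tables together, median-of-ratios size factors (1.15, 0.933 and 0.942), upper-quartile factors (1.15, 0.914 and 0.950), protein-coding transcripts only, FPKM without or with a pseudocount of 1, and a minimum of 20 reads. The genes named were the 8 members, transcripts with at least 10% of a member's reads in a library, or with 20 reads and past the limit in both comparisons of a library, pathway genes past the limit with at least 20 reads, the members' direct partners, and the 3 genes nearest to the member with the widest range. Casp8-203, Casp9-202, Apaf1-205, Apaf1-207, Fas, Myh9, Limk1, Casp2, Atp11a, Ano6, Plscr1 and the near copies were named after their values were seen, as was the addition of Gm10053 to Cycs. Some genes of the pathway list are counted but not reported here by name. The members and lists were chosen with earlier results of these data known.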

Additional observations from a re-analysis of the deposited data

Results flagged for a closer look

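The lncRNA table held reads of transcripts that overlap the loci of 3 of the 8 genes, above the 3 reads that a count of 0 allows. Whether they lie on the same strand as the gene was not used here, and how the authors' counting divided reads between the tables was not tested. The lncRNA over Casp8 had 20 reads in BMM-ABs against 8 (pOC-ABs) and 5 (mOC-ABs). The 3 lncRNAs over Apaf1 summed to 33, 12 and 32 reads, and 26 of the 32 in mOC-ABs were on a transcript over its 3′ end (chr10:90989318-90990666), which had 5 in BMM-ABs and 1 in pOC-ABs. The 6 lncRNAs over Rock1 summed to 39, 20 and 13 reads.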

How the results depend on the processing

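With 1 library per group there was no replicate to leave out, and no paired analysis was possible because each group had 1 library. Of 180 values of the 24 log2 ratios under other settings, 166 lay inside the counting interval and 14 outside, and the called ratio of Cycs kept its direction. The 166 include values that could not differ from the main ones. All 8 members passed the minimum of 20 reads, so that setting left every ratio as it was. Protein-coding transcripts alone likewise left Casp8, Rock1 and Xkr8 unchanged, as all their listed transcripts are protein-coding. Summed FPKM without a pseudocount left Rock1 and Xkr8, with 1 listed transcript each, the same to rounding. The 180 values include those of Cycs with Gm10053 added. The 2 values whose sign differed were Casp8 for pOC-ABs against BMM-ABs (-0.19 with both tables together) and Casp6 for mOC-ABs against pOC-ABs (0.08 with protein-coding transcripts). Scaling to the mRNA and lncRNA tables together moved the median of all genes by -0.20, -0.10 and 0.10 on the log2 scale for pOC-ABs against BMM-ABs, mOC-ABs against BMM-ABs and mOC-ABs against pOC-ABs. It then called 2 members (Cycs, Panx1) instead of 1 for pOC-ABs against BMM-ABs and 1 (Xkr8) instead of 0 for mOC-ABs against BMM-ABs. Protein-coding transcripts alone called 2 (Cycs, Panx1) and 1 (Panx1). Adding Gm10053 to Cycs, chosen after seeing the data, kept Cycs past the limit except with both tables together (0.90). Of the pathway list, pOC-ABs against BMM-ABs gave 2 genes with both tables together, 2 with upper-quartile factors, 6 with protein-coding transcripts and 0 with FPKM and a pseudocount of 1. The same list gave 7 with protein-coding transcripts, 1 with that FPKM and 1 with at least 20 reads for mOC-ABs against BMM-ABs. Member transcripts past the limit were 2, 1 and 2 with FPKM and the pseudocount, and 4 and 4 with at least 20 reads in the comparisons of mOC-ABs with BMM-ABs and with pOC-ABs. The median change of transcript make-up was 6.73% and 10.2% from FPKM for pOC-ABs and mOC-ABs against BMM-ABs, beside 14.2% and 13.9% over all genes. The cause of these differences was not tested. Depth limits Xkr8 most, whose 12 to 27 reads leave a log2 interval from -2.05 to 0.10 for mOC-ABs against BMM-ABs.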
